A study of Mus musculus with 13 samples.

Results

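Inguinal fat pads of 10 mice with fragmented sleep fell into 5 whose RNA was rich in transcripts of lymphoid tissue and 5 whose RNA was not. The split was chosen by a measured value: libraries with at least 50 FPKM of Glycam1, a mucin-like protein made by the high endothelial venules of lymph nodes, were called lymphoid-rich, and those under 50 FPKM lymphoid-poor. FPKM is a fragment count scaled to gene length and to sequencing depth. SF_ConD 1, 4 and 5 and SF_HPD 4 and 5 are the 5 rich libraries, of 10 in the split and 13 in the series. SF_ConD 2 and 3 and SF_HPD 1, 2 and 3 are the 5 poor ones. Just inside the threshold lay SF_HPD 4 at 124 FPKM of Glycam1, and just outside lay SF_HPD 3 at 0.796 FPKM, so no library was near it. Glycam1 itself is left out of the results.

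The study sequenced total RNA of inguinal white fat from individual mice, collected after 12 hours of fasting. Mice were allotted at random to groups matched for weight. SF_ConD mice (n = 5) had fragmented sleep and ate chow, SF_HPD mice (n = 5) had fragmented sleep and ate a high-protein diet with 50% of calories from protein, 12% from fat and 38% from carbohydrate, and SC_ConD mice (n = 3) had normal sleep and chow. The sources used here do not give strain, sex or age, or how the fat was trimmed at dissection. The SC_ConD libraries took no part in the split; their Glycam1 level was at most 0.0556 FPKM, and their values are given beside the others for reference.

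The mouse inguinal fat pad surrounds a lymph node. Lymphocytes enter a node from the blood through high endothelial venules, B cells gather in follicles around stromal cells that secrete the chemokine CXCL13, and T cells and dendritic cells are drawn to the T zone by CCL19 and CCL21. Lymphotoxin made by lymphocytes acts on the lymphotoxin beta receptor of stromal cells and, through the non-canonical NF-kappaB subunits, maintains these chemokines and the venules. In bulk tissue, fewer cells of a type and less RNA per cell cannot be told apart.

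Because the split used a value of this same contrast, the differences between rich and poor libraries are given as a description, with no test. For each gene the difference is the mean log2(FPKM + 1) of the 5 rich libraries minus that of the 5 poor ones. A gene is counted as higher or lower when the ranges of the 2 classes did not overlap and this difference was at least 1. Of 13729 genes with at least 1 FPKM in at least 3 of the 10 libraries, 668 were higher in the rich libraries by this rule (4.87%) and 14 were lower (0.102%). These shares are the background for every count of list members below, and since the rule used this contrast nothing is read from a count that exceeds them.

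Several libraries stood apart for reasons other than lymphoid transcripts. SF_HPD 2 had low adipocyte transcripts, and SF_HPD 4 had high skeletal muscle and very low epithelial transcripts. Without both, 1070 genes were higher and 131 lower, and 647 of the 668 were among the 1070. Long genes had relatively high values in SF_HPD 1, SF_HPD 4 and SF_ConD 3 (Spearman rho with gene length across genes 0.568, 0.510 and 0.490, respectively). They had relatively low values in the rich libraries SF_ConD 1 and SF_HPD 5 (-0.484 and -0.432). The rich minus poor difference itself had a Spearman rho of -0.133 with gene length over the genes kept. Mitochondrial genes held 2.82% of the reads in SF_HPD 1 and 33.2% in SF_ConD 5. Sequencing depth did not separate the classes, at 14815592 to 18303302 reads per library.

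As examples of a match to a kappaB motif, the region upstream of the RefSeq start is printed for 2 genes. They are Ltb, the membrane-anchoring subunit of lymphotoxin, and Madcam1, an adhesion molecule of venules that lymphocytes bind. These are 2 of the members of the gene lists that were higher in the rich libraries and hold the kappaB motif GGGACTTTC (reverse complement GAAAGTCCC, both strands searched) in the 250 bases before the start; they were picked for their place in lymphotoxin signalling and the venules. Both are on the + strand of GRCm38.p6, at chr17:35194257-35194438 for Ltb (182 bases, ending before an annotated UTR) and chr10:79664309-79664558 for Madcam1 (250 bases). Capitals mark the motif, which lies at -86 to -78 in Ltb and at -69 to -61 in Madcam1, counted from the RefSeq start.
Ltb: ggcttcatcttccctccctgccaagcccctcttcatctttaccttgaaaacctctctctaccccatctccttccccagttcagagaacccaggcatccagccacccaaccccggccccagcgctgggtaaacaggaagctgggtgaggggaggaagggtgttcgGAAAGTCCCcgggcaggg
Madcam1: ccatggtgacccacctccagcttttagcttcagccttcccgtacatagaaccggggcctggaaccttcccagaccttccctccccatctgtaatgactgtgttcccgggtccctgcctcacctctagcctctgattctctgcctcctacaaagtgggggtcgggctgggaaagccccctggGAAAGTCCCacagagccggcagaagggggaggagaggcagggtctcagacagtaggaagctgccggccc
The motif was present in 0.289% of 32851 RefSeq promoter windows. It was present in 8 of the 394 higher genes that matched the promoter table (2.03%) and in 37 of 9670 matched genes among all those kept (0.383%). The 8 genes were Aim2, Ltb, Madcam1, Ms4a6b, Ncr1, Neurl3, Nfkb2 and Pglyrp1. A further pair of motifs were searched in the same way. The octamer ATGCAAAT, bound by OCT factors in immunoglobulin promoters, was in 12 of the 394 (3.05%) and in 1.53% of kept genes, and GAGGAAGT, a PU.1 site, was in 35 of the 394 (8.88%) and in 3.21% of kept genes. A match is a description of the letters only. Whether lymphotoxin signalling acts through either printed site was not tested.

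B cell transcripts were among the largest differences. Cd79a, a signalling chain of the B cell receptor (chr7:24897381-24902197), stood at 196, 164 and 85.7 FPKM in SF_ConD 1, 4 and 5 and at 70.6 and 60.7 FPKM in SF_HPD 4 and 5. In the poor libraries it stood at 4.46 and 0.502 FPKM in SF_ConD 2 and 3 and at 0.514, 0 and 0.801 FPKM in SF_HPD 1, 2 and 3. The ranges lay far apart, with means of 115 ± 60.6 FPKM (SD, n = 5) and 1.26 ± 1.81 FPKM (SD, n = 5), a difference of 5.81. SF_ConD 2 was the highest of the poor libraries, and the 3 SC_ConD libraries, at 0.570, 2.66 and 0 FPKM, lay in the range of the poor ones. Its partner chain Cd79b differed by 6.06. Of 18 B cell markers, all kept, 17 were higher, with a median difference of 3.49 against -0.02 over all genes kept. They include Fcmr, the IgM Fc receptor (difference 4.43). The exception was Ly6d, which reached 10532 FPKM in the poor library SF_HPD 2, where the keratin Krt8 was also highest.

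Splitting the 10 libraries at the widest gap of Cd79a, Cxcl13 or Ccl21a in place of Glycam1 moved 0 libraries between the classes. The gap ran from 4.46 to 60.7 FPKM for Cd79a, from 12.7 to 51.4 FPKM for Cxcl13 and from 1.72 to 12.1 FPKM for Ccl21a. These 3 genes were given as markers of the split, so this is a description and no independent support.

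**Figure D1:**
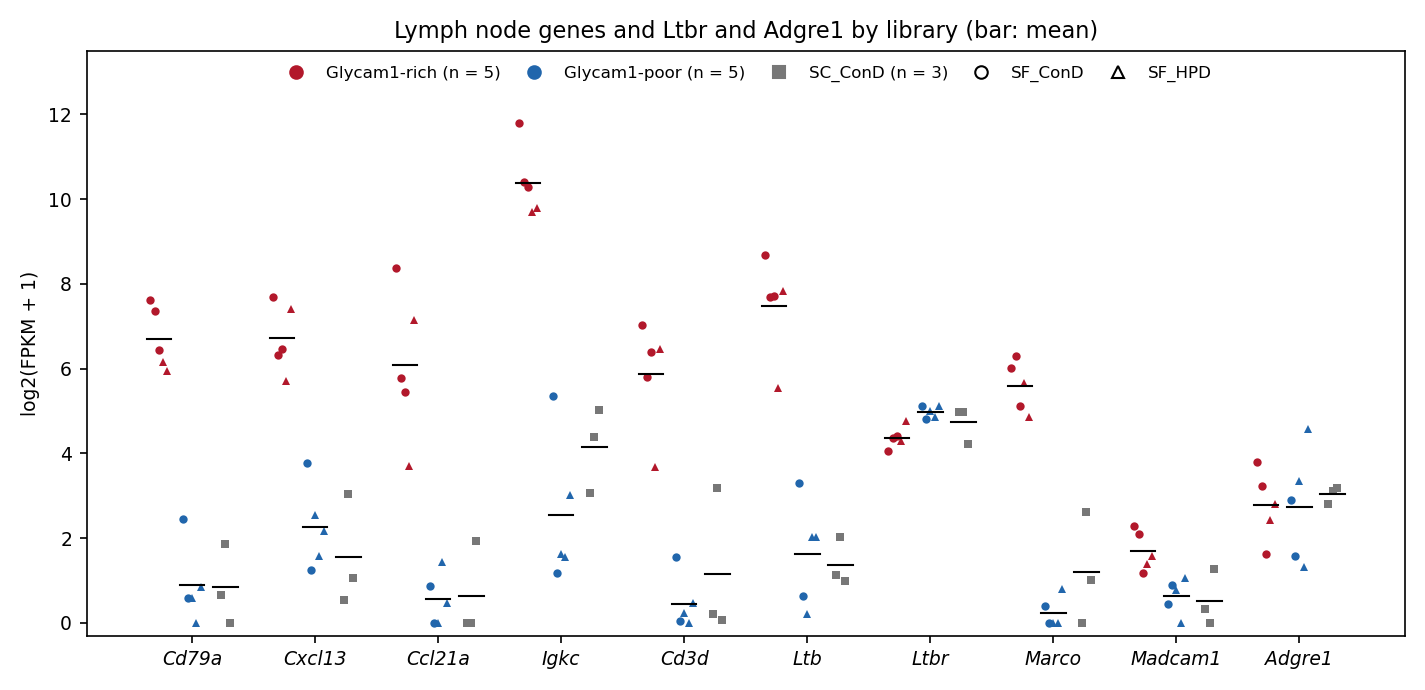
Expression by library as log2(FPKM + 1) for 10 genes, with red points for the 5 rich libraries, blue for the 5 poor ones, grey for the 3 SC_ConD libraries, circles for SF_ConD, triangles for SF_HPD and squares for SC_ConD, and a bar at each class mean. The red points lie above all blue points for every gene shown except Ltbr, where they lie below, and the macrophage gene Adgre1, where the classes overlap.

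Immunoglobulin transcripts gave the largest difference of all named genes. Igkc, the kappa light chain constant gene (chr6:70726435-70726966), was at 3550.4, 1353 and 1245 FPKM in SF_ConD 1, 4 and 5 and at 822 and 883 FPKM in SF_HPD 4 and 5. In the poor libraries it was at 40.2 and 1.28 FPKM in SF_ConD 2 and 3 and at 2.11, 1.95 and 7.08 FPKM in SF_HPD 1, 2 and 3. The classes did not overlap, and the difference was 7.84. Iglc2 differed by 7.46, Iglc1 by 6.28 and Iglc3 by 5.78. Iglc2 and Iglc3 are near-identical, so the division of reads between them is uncertain. Jchain, which links polymeric IgM and IgA, differed by 5.74. Of 17 immunoglobulin and plasma cell genes kept of 18, 13 were higher and 1 lower. The lower one was Sdc1, a plasma cell marker that epithelium also makes, which appears again below.

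Reads recovered from the FPKM values give the amount of antigen receptor transcripts in each library. Immunoglobulin genes held between 0.101% and 0.432% of reads in the rich libraries and at most 0.00851% in the poor ones. Between 62 and 122 immunoglobulin variable segments had at least 10 reads in a rich library, against 0 to 2 in a poor one. For T cell receptor variable segments the numbers were 19 to 37 and 0 to 4. With a cut of 10 reads these numbers follow the read totals and cannot compare diversity between the classes. Immunoglobulin reads were 15269 to 77074 in a rich and 128 to 1516 in a poor library. T cell receptor reads were 2873 to 15340 and 21 to 374. Antigen receptor segments made up 123 of the 668 higher genes.

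The class of antibody differed among the rich libraries themselves. Ighm, the IgM constant gene, held 68.7% to 73.0% of heavy chain constant reads in 4 of them. In SF_HPD 4 Ighm held 30.9% (95% Wilson interval 30.4% to 31.4%), and Ighg2b, an IgG constant gene, held 44.3% (43.8% to 44.9%), against 2.19% to 6.94% in the other 4. Iglc2 held 41.9% of light chain constant reads there (41.1% to 42.8%), against 9.41% to 23.6% in the other 4. Among variable segments of SF_HPD 4, Ighv10-3 alone took 61.6% of heavy chain variable reads (3239 of 5262) and Iglv2 took 88.9% of lambda variable reads (3683 of 4145). In the other 4 libraries the leading heavy segment took 8.13% to 33.9%, and the leading lambda segment was Iglv1, at 48.5% to 57.9%. Their heavy chain variable reads were fewer, at 1997, 2203 and 322 in SF_ConD 1, 4 and 5 and 248 in SF_HPD 5. The leading heavy segment of SF_ConD 1, 4 and 5 was Ighv11-2 in each, a segment known from B-1 cells, at 17.9%, 8.13% and 33.9%. These intervals cover counting error only.

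**Figure D2:**
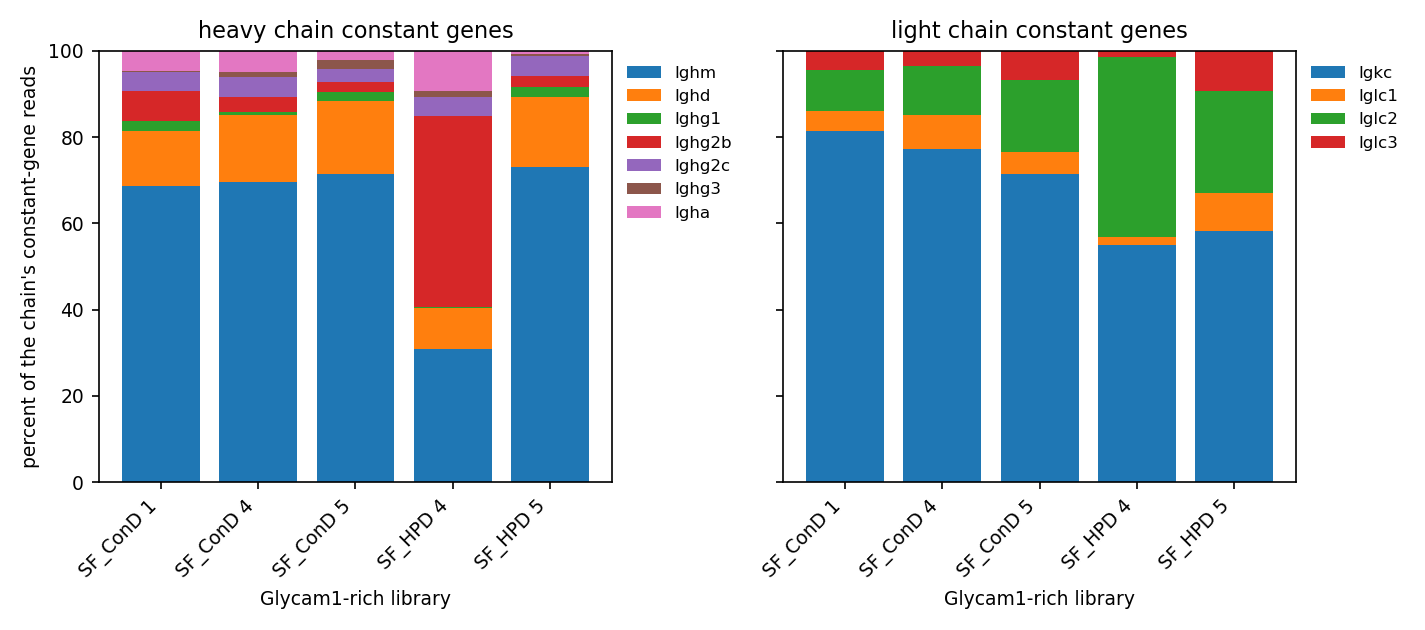
Stacked bars of the percent of constant-gene reads held by each heavy chain gene (left) and light chain gene (right) in each of the 5 rich libraries. SF_HPD 4 has the smallest Ighm share, 30.9%, and the largest shares of Ighg2b, 44.3%, and Iglc2, 41.9%.

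T cell markers were higher throughout the list. Trbc2, a constant gene of the T cell receptor beta chain, was at 645, 272, 439, 69.5 and 462 FPKM in SF_ConD 1, 4 and 5 and SF_HPD 4 and 5. It was at 14.3, 2.49, 0.406, 1.84 and 2.91 FPKM in SF_ConD 2 and 3 and SF_HPD 1, 2 and 3. SF_HPD 4 was the lowest of the rich libraries, and still above every poor one; the difference was 6.30. All 23 T cell markers were kept and all 23 were higher, with a median difference of 3.53. They include both coreceptors, Cd4 (difference 3.02) and Cd8a (4.05). The count was 22 on the TPM scale, in which each library sums to the same total, and 21 after quantile scaling. Trbc1 and Trbc2 are near-identical and may share reads.

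Genes of helper and regulatory T cells were higher in 4 of 8 kept, namely Ctla4, Icos, Pdcd1 and Tnfrsf4. Tnfrsf4, the costimulatory receptor OX40, ranged from 3.48 to 31.3 FPKM in rich and from 0.194 to 2.54 FPKM in poor libraries, and overlapped after quantile scaling. Of 11 cytotoxic and natural killer cell genes kept, 5 were higher, led by Nkg7 (4.18) and Klrd1 (3.59). The granzyme gene Gzma overlapped between the classes: SF_HPD 4, at 2.07 FPKM, lay below the poor library SF_ConD 2, at 4.13 FPKM.

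Germinal centres, the sites where activated B cells divide and mutate their receptors, left little trace at this depth. Only 3 of their 8 genes passed the filter on low values. Gcsam was higher (1.05 to 1.54 FPKM against at most 0.235), though by 0.78 after quantile scaling, which is under 1, while Bcl6, their defining transcription factor, ranged from 1.16 to 4.12 FPKM in rich and from 0.310 to 8.70 FPKM in poor libraries.

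Stromal chemokines of the node were higher as well. Cxcl13 (chr5:95956951-95961068) was at 207, 78.9, 87.4, 51.4 and 170.1 FPKM in SF_ConD 1, 4 and 5 and SF_HPD 4 and 5. In SF_ConD 2 and 3 and SF_HPD 1, 2 and 3 it was at 12.7, 1.36, 4.80, 2.01 and 3.51 FPKM. No poor library reached the lowest rich one, and the difference was 4.46. Ccl21a was at 329.8, 53.8, 42.6, 12.1 and 141 FPKM in the rich libraries, in the same order, and at most 1.72 FPKM in the poor ones, a difference of 5.53. The values are those of the copy on the unplaced scaffold JH584294.1; a copy on chromosome 4 reached 3.80 FPKM at most, and the division among these near-identical genes is uncertain. Of 10 lymph node stroma genes kept of 12, 4 were higher: Cxcl13, Ccl21a, Tnfsf11, which encodes RANKL (1.53 to 2.54 FPKM against at most 0.869), and Bst1 (4.04 to 11.5 FPKM against at most 2.64). Pdpn, a marker shared by reticular and other fibroblasts, overlapped, with a difference of -0.33.

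Genes of high endothelial venules other than Glycam1 were higher in 3 of 6. The count was 2 on the TPM scale, 2 after quantile scaling and 2 without SF_HPD 2 and 4. Their mean log2(FPKM + 1) overlapped, at 1.55 to 2.51 in rich and 0.696 to 1.61 in poor libraries. Chst4, a sulfotransferase of these venules, was between 0.619 and 4.44 FPKM in rich libraries and listed at 0 in all 5 poor ones. Fut7, a fucosyltransferase, differed by 1.67 and Madcam1 by 1.07. The other 3, Ackr1, B3gnt3 and Chst2, overlapped. Chst4 and Madcam1 were named after their values were seen. Among milk protein genes, which accompany Glycam1 in lactating mammary gland, Csn2 reached at most 0.0967 FPKM and Lalba at most 0.785 FPKM in any of the 10, and Wap was listed at 0 in all of them. Csn3, another casein gene, ranged from 0 to 14.4 FPKM in rich and from 0 to 35.9 FPKM in poor libraries, with overlap.

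Among lymphotoxin pathway genes the ligands Ltb, Lta and Tnf were higher in the rich libraries, while no receptor was counted as higher or lower. Tnfsf14, another ligand of the list, overlapped between the classes. Ltb (chr17:35194439-35196320) was at 407, 205, 209, 45.9 and 225 FPKM in SF_ConD 1, 4 and 5 and SF_HPD 4 and 5. It was at 8.93, 0.552, 0.154, 3.05 and 3.05 FPKM in SF_ConD 2 and 3 and SF_HPD 1, 2 and 3. The classes were far apart, with a difference of 5.85. The neighbouring genes Lta (chr17:35203165-35205351) and Tnf (chr17:35199381-35202007) were higher too, by 2.29 and 1.12. The receptor Ltbr was at 15.6, 19.5, 20.3, 18.7 and 26.0 FPKM in the rich libraries and at 33.6, 27.1, 30.8, 28.1 and 33.8 FPKM in the poor ones, in the same order. Every rich library was below every poor one, with medians of 19.5 and 30.8 FPKM, but the difference of -0.60 is under 1 and the classes overlapped on the TPM and quantile scales. Tnfrsf1b, a receptor that also binds lymphotoxin alpha, differed by 1.47 with overlap. Downstream, the non-canonical subunits Relb (8.62 to 23.1 FPKM against 3.53 to 5.50) and Nfkb2 (9.45 to 20.9 against 1.33 to 8.01) were higher. In all, 5 of 11 pathway genes were higher, and 4 after quantile scaling.

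Homing receptors of lymphocytes were higher in 10 of 12. Ccr7, the receptor for CCL19 and CCL21, was between 21.1 and 81.4 FPKM in rich and at most 1.35 FPKM in poor libraries. Cxcr5, the receptor for CXCL13, differed by 3.24. S1pr1, through which lymphocytes leave nodes and which endothelium also makes, overlapped, at 28.1 to 54.5 FPKM against 1.82 to 67.2 FPKM. Of 12 pan-leukocyte genes, 9 were higher, led by Cd52 and Coro1a.

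**Figure D3:**
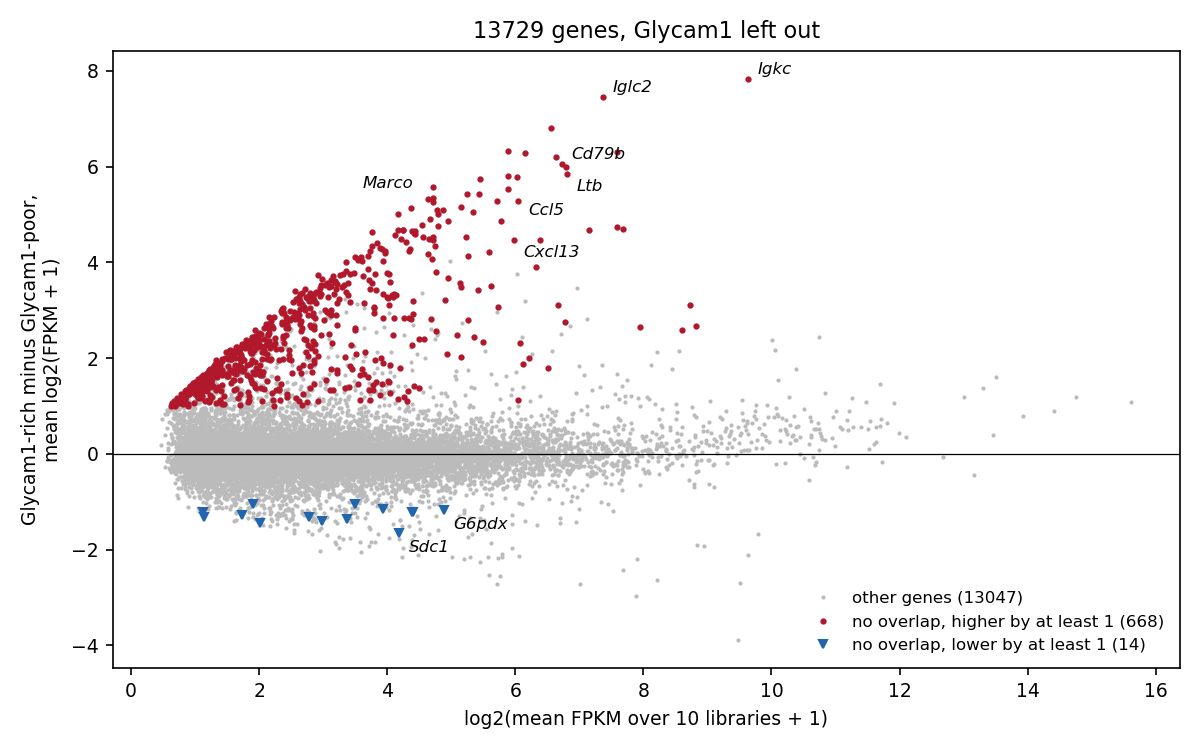
Difference between rich and poor libraries in mean log2(FPKM + 1) for each of 13729 genes, against the log2 of the mean FPKM over the 10 libraries plus 1. The 668 red points are genes higher by at least 1 without overlap and the 14 blue ones genes lower by at least 1 without overlap. Without the limit on size, 751 genes were higher and 77 lower without overlap. The red points extend to 7.84 (Igkc) and the blue ones to -1.64 (Sdc1).

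Antigen presentation genes were higher in 10 of 11 for MHC class II. H2-Aa was at 1289, 648, 665, 204 and 942 FPKM in SF_ConD 1, 4 and 5 and SF_HPD 4 and 5, while the poor libraries ranged from 26.2 to 162 FPKM. The SC_ConD libraries reached 592 FPKM, inside the range of the rich ones. H2-DMb2 showed the largest difference of the list, 4.88, and was named after its values were seen. Among 12 dendritic cell genes 5 were higher. They include Ccl22, a chemokine of mature dendritic cells (13.8 to 61.0 FPKM against at most 0.663), Siglech, of plasmacytoid dendritic cells (5.93 to 17.4 against at most 0.706), and Fscn1, whose classes overlapped on the TPM and quantile scales.

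Macrophage markers divided into genes that separated the classes and genes that did not. Of 19 markers, 2 were higher, Marco and Timd4. Marco, a scavenger receptor of sinus and marginal zone macrophages (chr1:120474538-120505024), was at 63.7, 77.1, 33.7, 49.9 and 27.8 FPKM in SF_ConD 1, 4 and 5 and SF_HPD 4 and 5. In SF_ConD 2 and SF_HPD 3 it was at 0.313 and 0.744 FPKM, and in SF_ConD 3, SF_HPD 1 and SF_HPD 2 it was listed at 0. No other macrophage marker of the list had so wide a gap; the difference was 5.35. Timd4, a phosphatidylserine receptor of resident macrophages, was between 19.0 and 88.5 FPKM in rich and at most 1.23 FPKM in poor libraries. Cd209b, a lectin of marginal zone and node medullary macrophages that is no member of the list, was between 51.7 and 378 FPKM against 1.14 to 15.6 FPKM. These 3 were named after their values were seen. Siglec1, which marks subcapsular sinus macrophages, was low and overlapped (0.635 to 4.79 FPKM against 0.0162 to 3.03).

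General macrophage genes overlapped. Adgre1, which encodes F4/80, was at 12.9, 8.37, 2.07, 4.37 and 6.04 FPKM in the rich libraries and at 6.52, 1.97, 9.17, 1.5 and 22.7 FPKM in the poor ones, in the same order, and its difference was 0.03. The highest value was in the poor library SF_HPD 3. The complement genes C1qa, C1qb and C1qc differed by 0.99, 1.01 and 1.10 with overlap, and Lyz2 by 2.38 with overlap. Over the whole list the mean log2(FPKM + 1) ranged from 3.30 to 4.67 in rich and from 1.91 to 4.04 in poor libraries.

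**Figure D4:**
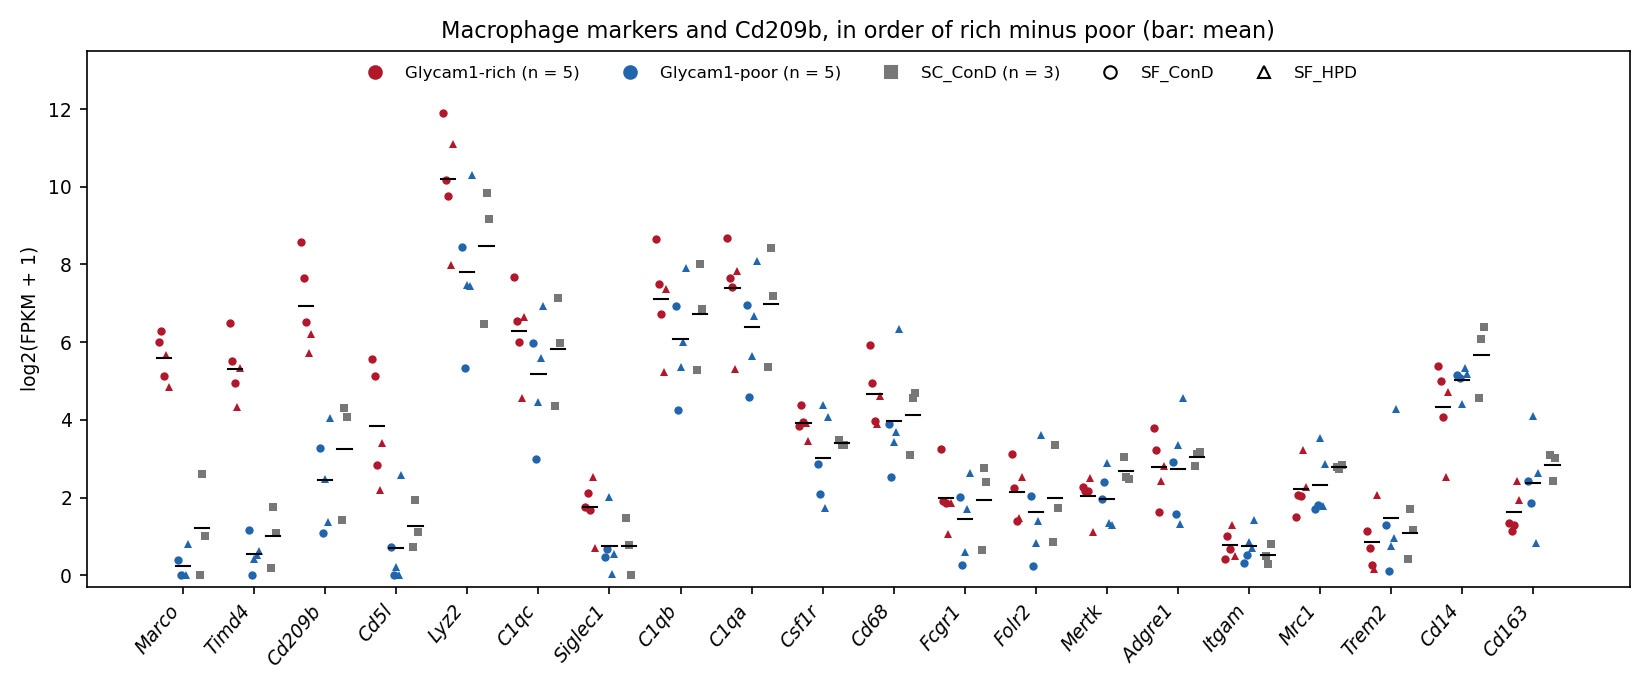
Expression by library as log2(FPKM + 1) for the 19 macrophage markers and Cd209b, ordered by the difference between rich and poor libraries, with colours and symbols by class and group and a bar at each class mean. Marco, Timd4 and Cd209b have all 5 red points above all blue points; from Cd5l on, the classes overlap.

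Granulocyte and mast cell genes were higher in 5 of 10. S100a9, a neutrophil calcium-binding protein, was at 39.7, 37.2, 217, 48.3 and 91.2 FPKM in the rich libraries and at 30.3, 10.4, 1.35, 1.55 and 2.85 FPKM in the poor ones, in the same order. The highest poor library, SF_ConD 2, was close below the lowest rich one. Mcpt4, a mast cell protease, differed by 2.83, with overlap on the TPM scale. Over the whole list the mean log2(FPKM + 1) ranged from 3.31 to 4.04 in rich and from 0.711 to 2.21 in poor libraries. It was 1.22, 2.88 and 3.46 in SC_ConD 1, 2 and 3, the last pair above every poor library.

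Inflammatory mediators that are often read as signs of adipose inflammation followed the split in part. Of 19 kept of 24, 5 were higher: Ccl5, Il12b, Il1b, Tnf and Vcam1. After quantile scaling the count was 3. Ccl5, a chemokine made by T and NK cells, was at 229, 121, 119, 20.2 and 150.3 FPKM in SF_ConD 1, 4 and 5 and SF_HPD 4 and 5, and at most 5.16 FPKM in the poor libraries. Tnf was between 1.34 and 3.27 FPKM in rich and at most 0.842 FPKM in poor libraries, a difference of 1.12. Il1b was between 1.73 and 3.37 FPKM in rich and at most 0.703 FPKM in poor libraries, a difference of 1.40. The 5 rich libraries lay above the 5 poor ones for both cytokines, at low levels throughout. Ccl2, the monocyte chemokine, overlapped (0.968 to 4.61 against 0.658 to 5.18 FPKM; difference 0.41), as did Lcn2 and Cxcl9. Il6 did not pass the filter and reached at most 0.459 FPKM, in the poor library SF_HPD 3. Over the whole list the mean log2(FPKM + 1) ranged from 2.06 to 3.70 in rich and from 1.19 to 2.34 in poor libraries. It was 1.42, 3.11 and 3.01 in SC_ConD 1, 2 and 3, so high levels were also found in libraries without lymphoid transcripts. Lymphocyte markers moved with Ccl5, Tnf and Il1b, and their part in those differences was not tested.

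Interferon-stimulated genes were higher in 2 of 15 kept, Gbp2 and Mx1, and in 7 of 15 without SF_HPD 2 and 4. Gbp2 overlapped on the TPM scale. Cell division genes were higher in 2 of 20 kept, Mcm5 and Ccna2, and in 0 on the TPM scale. Pcna, a replication clamp, was between 19.5 and 60.1 FPKM in rich and between 16.2 and 31.0 FPKM in poor libraries, with overlap.

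Among lymphatic endothelium genes, 2 of 7 kept were higher, Stab2 and Mmrn1, both known from lymphatic endothelium. Stab2 was between 0.737 and 6.23 FPKM in rich and at most 0.161 FPKM in poor libraries, with the highest value in SF_HPD 4. Lyve1, the classical lymphatic marker, overlapped at a single point, SF_HPD 5 at 3.59 FPKM against SF_HPD 3 at 3.78 FPKM. Blood endothelium genes were higher in 0 of 12, with a median difference of 0.08 whose sign depended on the library left out. Actb, the cytoplasmic actin often used as a reference gene, was at 482 to 661 FPKM in rich and at 209.8 to 377 FPKM in poor libraries, without overlap, a difference of 0.98. The classes overlapped on the TPM and quantile scales. It was named after its values were seen.

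The genes lower in the rich libraries were few and changed with the scaling. The largest difference was that of Sdc1, at 3.45, 8.95, 8.52, 5.66 and 2.41 FPKM in the rich libraries and at 10.2, 17.1, 9.79, 93.0 and 12.7 FPKM in the poor ones, in the same order. SF_HPD 2, at 93.0 FPKM, was far above the other poor libraries, and the difference was -1.64. Ckb, brain-type creatine kinase, was between 8.85 and 10.9 FPKM in rich and between 14.9 and 70.7 FPKM in poor libraries (-1.20). G6pdx, which supplies NADPH for lipid synthesis, was between 11.3 and 19.3 FPKM in rich and between 20.3 and 64.8 FPKM in poor libraries (-1.17). Hmgcs1, an early enzyme of cholesterol synthesis, differed by -1.15, and Slc27a4, a fatty acid transporter, by -1.04. Of the 12 largest, which also hold Ctxn1, Efs, Reep6, Sdr42e1, Fam110c, Cttn and Hacd4, only Ckb kept its separation on the TPM scale. All 12 were negative on each scale tried. The scales themselves shift: the median difference over all genes kept was -0.02 as FPKM, -0.23 as TPM, -0.03 after median-of-ratios and -0.12 after quantile scaling.

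Adipocyte and epithelial lists held no gene that separated the classes. Of 20 adipocyte identity genes 0 were higher or lower, and 2 were lower without SF_HPD 2 and 4. Adipoq, which encodes adiponectin, was at 1413, 836, 1207, 673 and 2175 FPKM in the rich libraries and at 2637, 666, 1437, 26.1 and 1989 FPKM in the poor ones, in the same order. The low value is SF_HPD 2, and leaving it out turned the list's median difference from 0.11 to -0.80. Lep, which encodes leptin, ranged from 1.71 to 37.1 FPKM in rich and from 0 to 95 FPKM in poor libraries. Of 12 stromal progenitor markers 2 were higher, Cd55 and Dpp4, and 0 on the TPM scale; the list's median difference was 0.04. Extracellular matrix genes had a median difference of -0.60, and all 19 were negative with overlap. That median was -0.20 without SF_HPD 1 and -1.07 without SF_HPD 2 and 4, where 3 genes were lower. Mammary and epithelial genes had a median difference of -1.75 with overlap in all 13 kept; it was -1.04 without SF_HPD 4 and -0.75 without SF_HPD 2 and 4. Krt8, a keratin of ductal epithelium, was at 0.888 FPKM in the rich library SF_HPD 4 and at 1005 FPKM in the poor library SF_HPD 2. The mean level of that list ranged from 0.49 to 5.10 in rich and from 3.42 to 5.65 in poor libraries.

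Transcripts of other tissues stood out in individual libraries. Acta1, skeletal muscle actin, was at 6792 FPKM in SF_HPD 4 and at most 11.4 FPKM in the other 4 rich libraries, and the median difference of the 6 muscle markers kept turned from 1.04 to -1.15 without SF_HPD 4. Mitochondrially encoded genes were higher on average by a median of 1.46, with overlap in all 13; mt-Co1 was highest in SF_ConD 5 and SF_HPD 5. Ucp1, the uncoupling protein of thermogenic adipocytes, was at 124 FPKM in SF_HPD 5 and reached 35.3 FPKM at most in the other 9. The part of these contents in the differences above was not tested.

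**Figure D5:**
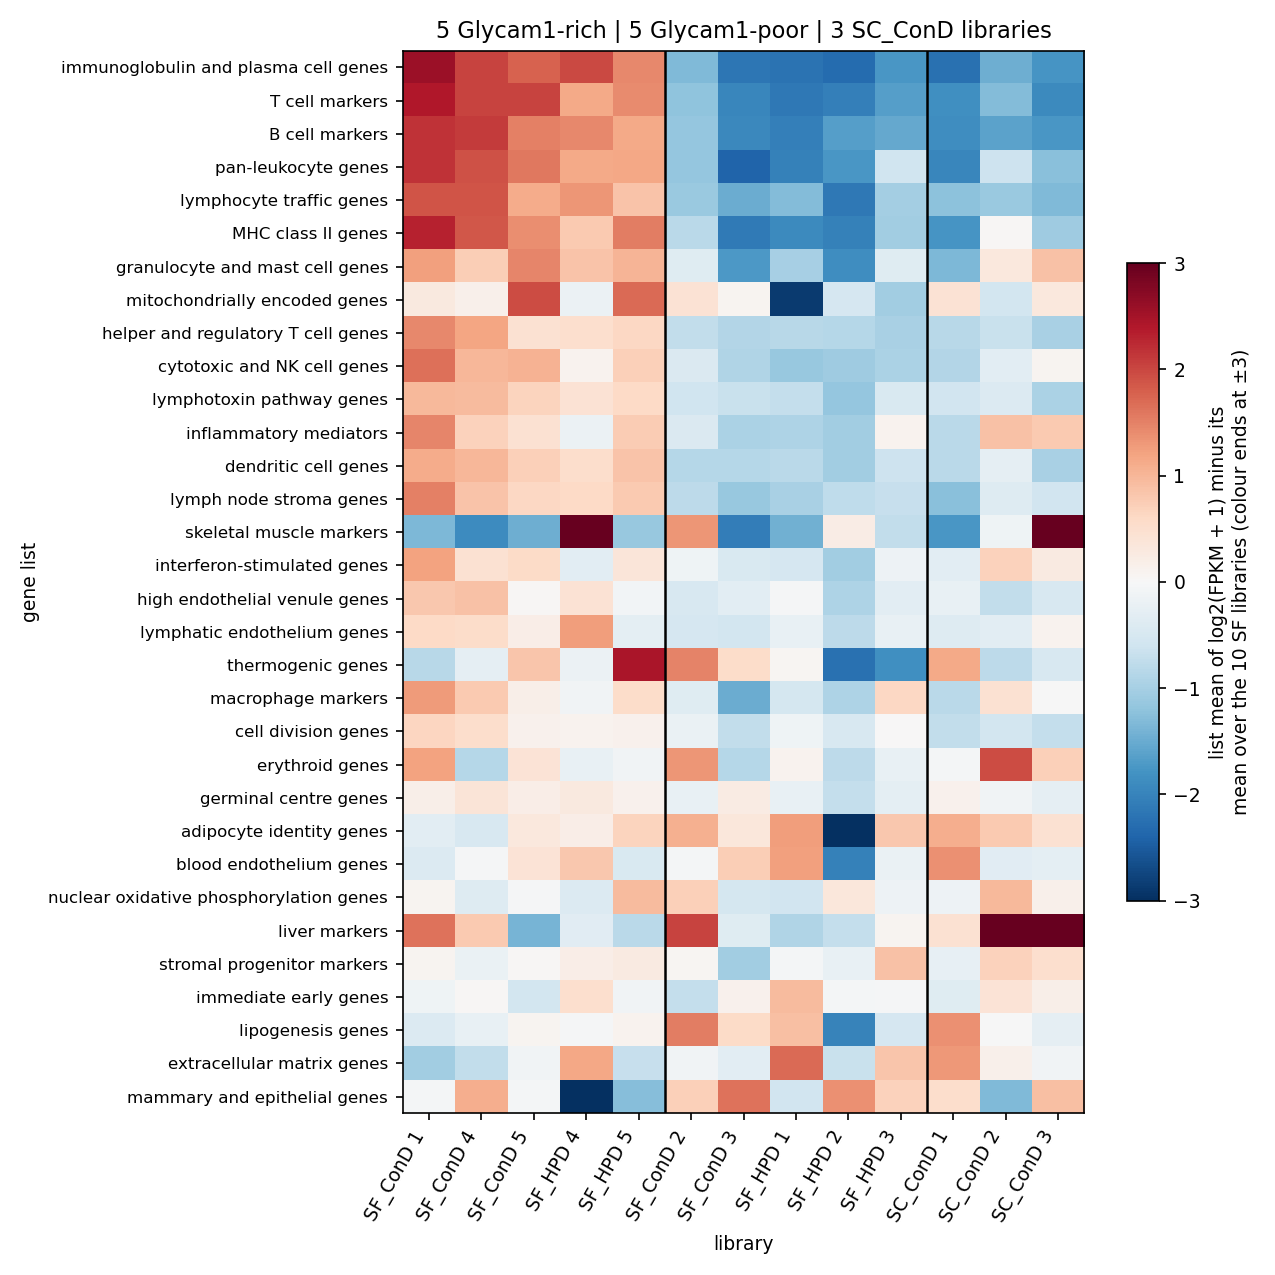
Mean log2(FPKM + 1) of each of 32 gene lists in each of 13 libraries, as the difference from the list's mean over the 10 sleep-fragmented libraries, with lists ordered by their median difference between rich and poor libraries. Lymphoid lists at the top are red in all 5 rich libraries and blue in the poor ones, while single dark cells mark muscle in SF_HPD 4, adipocyte genes in SF_HPD 2 and epithelial genes in SF_HPD 4.

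The 668 higher genes, which include genes of other cell types than lymphocytes, held 4.11%, 3.70% and 1.94% of reads in SF_ConD 1, 4 and 5 and 2.60% and 1.68% in SF_HPD 4 and 5. They held 0.123% to 0.507% in the poor libraries and 0.359% to 0.457% in the 3 SC_ConD libraries. By this share all 3 SC_ConD libraries lay within the range of the poor ones, as did their means of B and T cell markers. Their highest list mean of log2(FPKM + 1) was above every poor library for MHC class II genes (4.75 against at most 3.92). The same held, among others, for lymph node stroma (1.94 against 1.62), cytotoxic and NK cell (1.49 against 0.962) and dendritic cell genes (1.51 against 1.16). For Marco the SC_ConD libraries were at 0, 5.09 and 1.01 FPKM, the last pair above every poor library. For Igkc they were between 7.36 and 31.4 FPKM, inside the poor range.

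Diet was the labelled comparison within the split, and the rule did not use it. Of the SF_ConD libraries 3 of 5 were rich and of the SF_HPD libraries 2 of 5, which Fisher's exact test did not separate (two-sided p = 1). Mean log2(FPKM + 1) in SF_HPD minus SF_ConD was -2.18 for Cd79a, -1.22 for Cxcl13 and -1.54 for Ccl21a. Exact two-sided permutation tests over 5 against 5 libraries gave p = 0.230, 0.452 and 0.468, each 0.468 after Benjamini-Hochberg adjustment over the 3 genes; the smallest p this design allows is 0.00794. With the class as a term in a limma fit, the diet difference was -1.06 for Cd79a (SE 0.40), -0.34 for Cxcl13 (SE 0.55) and -0.45 for Ccl21a (SE 0.77). Limma's unadjusted p was 0.0236, 0.556 and 0.573, in the same order. Adjusted over all 13729 genes kept, and not over the 3 markers, limma's p was 0.99995 for each. As list means, SF_HPD minus SF_ConD was -0.63 for B cell and -0.87 for T cell markers among the rich libraries and -0.19 and -0.36 among the poor ones, given with no test.

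Across all 13729 genes the limma fit of diet with the class as a term called 0 genes (0%) at an adjusted p of 0.05, with 353 genes at an unadjusted p under 0.05. A fit without the class term also called 0, with 301. By limma-voom, run on the reads recovered from FPKM, 0 were called, with 354. The smallest adjusted p of the limma fit was 0.584. Among genes averaging 2 FPKM or more, the smallest p with lower values in SF_HPD were those of Nxf7 (-1.82, SE 0.35), Slc35f3 (-2.12, SE 0.44) and Proc (-2.15, SE 0.45), at limma's adjusted p of 0.861, 0.885 and 0.885. Col14a1, a collagen (1.16, SE 0.27), Cys1 (0.94, SE 0.24) and Sfrp5, a secreted WNT inhibitor of adipocytes (1.59, SE 0.41), had the smallest p in the other direction, at limma's adjusted p of 0.99995. None of these 6 passed the test. In Col14a1, Cys1 and Sfrp5 alike the 5 SF_HPD libraries lay above the 5 SF_ConD libraries. For Sfrp5 the ranges were 1.40 to 7.74 FPKM and 0.275 to 1.07 FPKM. These genes were picked for their small p, and the share of all genes that separate the diets was not counted.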

How the data were processed

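Total RNA of inguinal fat from 13 individual mice was sequenced, 1 library per mouse. The authors deposited 1 table of FPKM values, which also lists each gene's name, position and length. The submitters' processing notes name CASAVA, HISAT2 2.0.5, featureCounts 1.5.0-p3 and the build mm8, with no role. Of 54532 gene identifiers, 54495 are in GENCODE M21 on GRCm38 and 53585 agree in start and end, so positions here refer to GRCm38. The sources used here give neither the strand setting nor the origin of the depth divisor.

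Values were used as log2(FPKM + 1), which understates the differences of low genes. Genes with at least 1 FPKM in at least 3 of the 10 sleep-fragmented libraries were kept. Reads were recovered as FPKM times gene length over the smallest step of each library; at least 99.9883% of values came out whole within 0.05, and totals were 14815592 to 18303302. Intervals of shares are 95% Wilson intervals. Genes sharing reads with near-identical or overlapping copies are uncertain; Gapdh, for one, was listed at no more than 4.77 FPKM.

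The split, the 32 gene lists and the alternatives were chosen with earlier results of these data known. Named genes are the 12 largest differences in each direction without overlap and a mean of at least 2 FPKM, leaving out unnamed models, pseudogenes and antigen receptor segments; the 4 members of each list with the highest mean; a few preset cytokines and adipocyte genes; and the 3 smallest p in each direction of the diet fit. Other genes were named after their values were seen, and a few genes meeting these criteria are not reported here. Diet was tested with limma 3.58.1 in R 4.3.3 (two-sided, trend and robust options, Benjamini-Hochberg adjustment), after a check on simulated data. Alternatives were a pseudocount of 0.1, other filters on low values, TPM, median-of-ratios and quantile scaling, other classes, limma-voom, a replicate block and leaving out libraries. No pair of libraries differed by as little as sampling noise (lowest chi-square per degree of freedom 71.0). P-values measure the spread between individual mice.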

Additional observations from a re-analysis of the deposited data

Results flagged for a closer look

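Of 64 mean levels examined (32 lists in 2 classes of 5 libraries), 3 had a library set apart from the other 4 by more than 0.71 of the whole range; chance sets about 1 in 20 apart. The mean log2(FPKM + 1) of lymph node stroma genes was 3.84 in SF_ConD 1, above the other rich libraries, the next of which was at 3.17. The mean of adipocyte identity genes was 3.64 in SF_HPD 2, below the other poor libraries, the next of which was at 7.81. The mean of skeletal muscle markers was 11.1 in SF_HPD 4, above the other rich libraries, the next of which was at 1.45.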

How the results depend on the processing

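The count of 668 higher genes became 293 when the mean had to reach 5 FPKM, 355 at a difference of at least 2, and 1070 without SF_HPD 2 and 4, an alternative chosen after seeing the data. It ranged from 645 to 792 when 1 library was left out, and 520 of the 668 were among 567 on the TPM scale. The count of 14 lower genes became 24 with a pseudocount of 0.1, 9 when the mean had to reach 5 FPKM, 41 as TPM, 41 after quantile scaling, 9 with the SC_ConD libraries added, 0 at a difference of at least 2 and 131 without SF_HPD 2 and 4. It ranged from 16 to 53 when 1 library was left out, with 53 without SF_HPD 1, 47 without SF_HPD 4, 37 without SF_ConD 2 or SF_ConD 4, 30 without SF_ConD 3, 26 without SF_HPD 2 and 22 without SF_HPD 3. A smaller number of libraries makes overlap less likely by construction; beyond that the cause was not tested. List medians kept 1 sign under every setting in 23 of 32 lists; blood endothelium, adipocyte, lipogenesis, stromal progenitor, muscle, liver, erythroid, oxidative phosphorylation and immediate early lists did not. The diet fit called 0 genes under each setting, with 120 to 665 genes at an unadjusted p under 0.05 and a smallest adjusted p of 0.183 by limma, without SF_ConD 5. With the replicate block it called 0 genes, with 350 unadjusted. Same-numbered libraries of the diet groups correlated at -0.680 to 0.410, and 1 of 5 correlated best with its own number. The lowest values rest on few reads, so differences of genes near 1 FPKM are imprecise.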

Other observations

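The CCL19 locus differed among the rich libraries in which copy was listed. Ccl19 on chromosome 4 was at 72.0 FPKM in SF_HPD 5 and reached 0.838 FPKM at most in the other 4 rich libraries. The annotated pseudogene Ccl19-ps3 was at 99.7, 20.5 and 67.9 FPKM in SF_ConD 1, 4 and 5 and at 18.1 and 16.5 FPKM in SF_HPD 4 and 5, and at most 3.57 FPKM in the poor libraries. These copies are near-identical, and the division of reads between them is uncertain. They were named after their values were seen.

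Igha, the IgA constant gene, was at 28.6, 23.0 and 6.39 FPKM in SF_ConD 1, 4 and 5 and at 61.3 and 1.36 FPKM in SF_HPD 4 and 5. In the poor libraries it was at most 0.823 FPKM. Within the rich libraries the leading kappa variable segment was different in each: Igkv3-2, Igkv1-135 and Igkv14-126 in SF_ConD 1, 4 and 5 and Igkv5-39 and Igkv6-20 in SF_HPD 4 and 5, at 13.8%, 9.52%, 23.5%, 17.7% and 6.97% of kappa variable reads. Cd5l, a secreted macrophage protein, was at 46.7 and 33.9 FPKM in SF_ConD 1 and 4 and between 3.56 and 9.66 FPKM in the other 3 rich libraries, against at most 5.03 FPKM in the poor ones.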
